A study of Mus musculus with 6 samples.

Results

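Expression of 10 genes of the prostaglandin pathway was compared between cultures labelled as primary mouse skin endothelial cells (ECs), in normal and in high glucose. The genes were picked by name: Pla2g4a, Ptgs1, Ptgs2, Ptges, Ptgis, Ptgds, Hpgd, Ptger2, Ptger4 and Ptgfr. All 10 were among the 55487 gene identifiers of the count table, and 9 of them passed the filter on low counts, as did 19015 genes in all. Transcripts of both cyclooxygenases fell by more than 50% in high glucose. Of the receptors, Ptger2 fell while Ptger4 and Ptgfr rose. The synthases Ptges and Ptgis, which had the highest levels per length of the set, were not called different.

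Prostaglandins are short-lived lipid signals made from arachidonic acid. Cytosolic phospholipase A2 frees this fatty acid from membranes, a cyclooxygenase turns it into prostaglandin H2, and a terminal synthase turns that into 1 of several products, sensed by G protein-coupled receptors. In vessel walls, prostacyclin relaxes smooth muscle and restrains platelets, and in skin prostaglandin E2 takes part in inflammation and wound repair.

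Each group held 3 cultures of C57BL/6 skin cells enriched with CD31 beads, from 4 to 6 mice aged 2 to 3 months in an isolation. One group was kept for 48 hours in medium with 5 mmol/L glucose and the other in medium with 20 mmol/L, the latter a model of the hyperglycemia of diabetes. The paper's legends count n in mice, but the labels do not tie a culture to an animal. P values measure the spread between these cultures, whose source the labels do not give and which may be technical. Samples held between 120192466 and 146881356 counts. Levels are given in CPM, counts scaled to a total of 1000000 per sample after normalization for composition, on which scale 3 counts amounted to 0.0211 to 0.0258.

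Defining markers of ECs were at or near 0 in all 6 cultures, against the label, while others were expressed. Pecam1, which encodes CD31, had 9 to 19 counts per sample, and Tie1, Cldn5, Robo4 and Sox17 had at most 4. Cdh5, which encodes VE-cadherin, had 91 to 242 counts, Kdr (VEGFR2) 576 to 777, Egfl7 1113 to 1464 and Flt1 (VEGFR1) 4457 to 8030. Eng, which encodes endoglin and is not restricted to ECs, had 15854 to 22307. The 15 endothelial markers together reached 216 to 243 CPM in normal glucose and 194 to 200 CPM in high glucose, most of it from Eng and Flt1. The 15 fibroblast markers, led by collagens, reached 41694 to 45094 CPM and 75549 to 80680 CPM. Of these, 13 were higher and 2 lower in high glucose (edgeR quasi-likelihood test, adjusted P under 0.05). In bulk cultures, fewer cells of a type and less RNA per cell cannot be told apart, and the part of the fibroblast genes in the results on prostaglandin genes was not tested.

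The promoters of the cyclooxygenases and of Ptger2 and Ptger4, the tested members with the largest fold changes, are shown. They are placed by RefSeq start sites, which may differ from those of the transcripts counted. Each stretch runs from 150 bases before the RefSeq start site to 30 bases of transcript (GRCm38.p6), in the direction of transcription. Capitals mark a searched motif. The Ptgs2 stretch lies at chr1:150099881-150100060 on the plus strand, that of Ptgs1 at chr2:36230276-36230455 on the plus strand, that of Ptger2 at chr14:44987961-44988140 on the plus strand and that of Ptger4 at chr15:5244158-5244337 on the minus strand. The Ptger2 stretch ends before 44988195, where the gene starts in the annotation used here for exon lengths.
Ptgs2: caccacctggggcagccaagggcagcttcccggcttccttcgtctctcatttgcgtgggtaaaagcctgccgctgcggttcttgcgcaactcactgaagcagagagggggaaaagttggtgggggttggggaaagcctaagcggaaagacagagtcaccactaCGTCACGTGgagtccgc
Ptgs1: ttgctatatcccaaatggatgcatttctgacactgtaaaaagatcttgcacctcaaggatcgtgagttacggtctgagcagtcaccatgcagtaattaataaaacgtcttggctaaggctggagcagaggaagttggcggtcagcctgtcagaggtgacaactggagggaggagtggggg
Ptger2: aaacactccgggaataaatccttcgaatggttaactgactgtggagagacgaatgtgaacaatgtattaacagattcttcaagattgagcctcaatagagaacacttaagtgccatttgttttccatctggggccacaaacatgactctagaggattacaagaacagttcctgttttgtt
Ptger4: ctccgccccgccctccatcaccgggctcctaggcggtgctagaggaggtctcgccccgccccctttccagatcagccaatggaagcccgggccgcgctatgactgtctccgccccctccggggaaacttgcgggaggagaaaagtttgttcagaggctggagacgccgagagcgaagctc
In the full windows of 250 bases before and 50 after the start, 7 motifs were searched on both strands. The Ptgs2 window held TGACG, the half-site of the cAMP response element, on the minus strand at bases 14 to 18 after the start. It also held the E-box CACGTG at bases 17 to 22, which shares 2 bases with the half-site. Of 32851 mouse promoters of the same length, 20.8% held TGACG and 7.15% held CACGTG. None of the motifs searched was found in the windows of Ptgs1, Ptger2 or Ptger4. The others were the TATA box (TATAAA), the full cAMP response element (TGACGTCA), the AP-1 site (TGANTCA), an EGR site (GCGNGGGCG) and an NF-kB site. The windows of Hpgd and of an inner Pla2g4a start held TATAAA, found in 13.6% of promoters, and that of Ptgds held TGANTCA, found in 7.81%. The GC content of the windows was 59.3% for Ptgs2, 50.7% for Ptgs1, 37.7% for Ptger2 and 67% for Ptger4, against a median of 52.7% over all promoters. Of the 10 genes, 9 were matched to this table, and Ptgis was not.

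The cyclooxygenases make prostaglandin H2, the step that commits arachidonic acid to the pathway. Ptgs1 encodes COX-1, which most tissues express at a steady level, and Ptgs2 encodes COX-2, which growth factors, cytokines and mechanical stress induce. Ptgs1 (ENSMUSG00000047250; chromosome 2, 36230426 to 36252272, GRCm38) measured 122, 127 and 129 CPM in the 3 cultures in normal glucose and 57.6, 53.8 and 53.7 CPM in those in high glucose. All high-glucose cultures were below all normal-glucose cultures, by a log2 fold change of -1.19 (SE 0.053; adjusted P = 1.5e-07, edgeR quasi-likelihood test), or 2.29-fold. Exons of Gm43621 overlap 148 bases of Ptgs1 exons on the other strand and held 3 to 25 counts per sample. Ptgs2 (ENSMUSG00000032487; chromosome 1, 150100031 to 150108227) measured 41.5, 46.6 and 42.2 CPM in normal glucose and 17.6, 18.0 and 18.1 CPM in high glucose. Its groups did not overlap either, with a log2 fold change of -1.28 (SE 0.059; adjusted P = 1.9e-07), or 2.43-fold lower. Only 403 of the 19015 tested genes had a log2 fold change below that of Ptgs1, and 317 below that of Ptgs2.

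Across all tested genes, 14.5% were called lower in high glucose and 16.9% higher. These shares are the background for every count of called genes given here. Of the 9 members tested, 3 were called lower (Ptgs1, Ptgs2 and Ptger2) and 2 higher (Ptger4 and Ptgfr). The groups did not overlap in these 5 members, nor in Ptgds, which was not tested, while 46.4% of all tested genes showed no overlap. The median log2 fold change of the 9 was -0.11, against 0.006 over all genes. With 9 members, such counts are small to set against these shares, and 5 of 9 without overlap is near the background. Scaling by library size alone lowered the median of all genes by a shift of -0.115 on the log2 scale and added Ptgis and Pla2g4a to the genes called lower, for 5 in all.

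**Figure D1:**
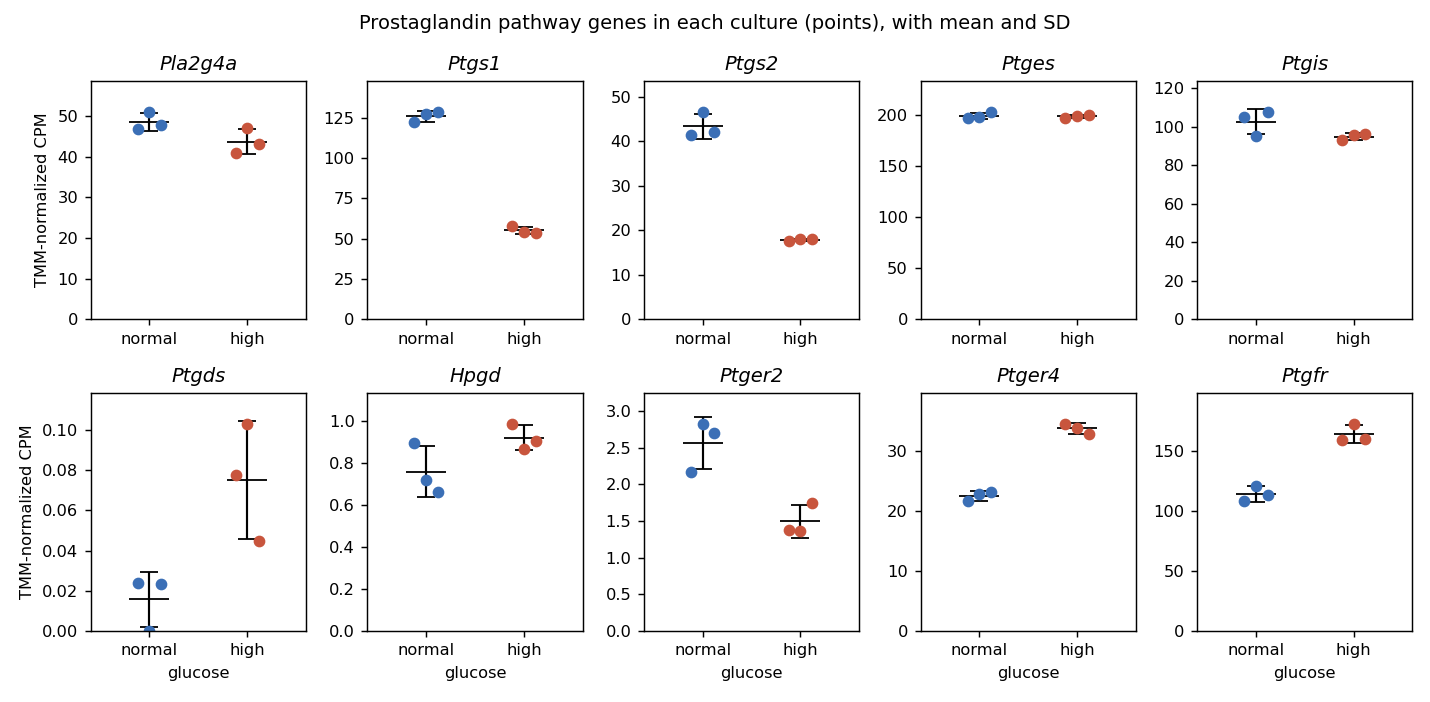
Normalized CPM of the 10 genes (vertical axes, each starting at 0) in the 3 cultures in normal glucose (blue) and the 3 in high glucose (red), with the mean as a long bar and the SD as whiskers. Ptgs1 and Ptgs2 fell from means of 126 and 43.4 CPM to 55.0 and 17.9 CPM, Ptger4 and Ptgfr rose, and the points of Ptges lay at 197 to 202 CPM in both groups.

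The 2 cyclooxygenases fell by like proportions. Per length of exon, the Ptgs2 to Ptgs1 ratio was 0.288, 0.311 and 0.279 in normal glucose, against 0.259, 0.284 and 0.285 in high glucose. The ranges overlapped, at means of 0.293 ± 0.0166 and 0.276 ± 0.0147 (SD, n = 3 each). Ptgs2 thus made up 22.6% ± 0.992 of the cyclooxygenase transcripts in normal glucose and 21.6% ± 0.907 in high glucose. These shares depend on the length used. With the length of the longest transcript, the ratio was 0.222 ± 0.0126 in normal glucose and 0.21 ± 0.0111 in high glucose, again with overlap.

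Upstream of the cyclooxygenases, Pla2g4a encodes cytosolic phospholipase A2 alpha, which cuts arachidonic acid from membrane phospholipids. Its levels were 46.8, 51.0 and 47.9 CPM in normal glucose and 41.0, 47.0 and 43.1 CPM in high glucose. The highest high-glucose culture just passed the lowest normal-glucose one, and the log2 fold change of -0.15 (95% interval -0.29 to -0.012) was not called (adjusted P = 0.092). This call depended on the setting: leaving out normal glucose replicate 1 gave -0.20 (adjusted P = 0.029), and leaving out high glucose replicate 2 gave -0.22 (adjusted P = 0.038).

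On a list of 20 other phospholipase genes, 12 were tested, 2 were lower, 2 were higher and 8 were not called, with a median log2 fold change of -0.019. The list includes Plaa, whose protein is not a phospholipase but is named as an activator of them (-0.024, not called). Pla2g7, which encodes an enzyme that breaks down platelet-activating factor, fell from 2136 to 2362 counts per normal-glucose culture to 671 to 829 per high-glucose culture (-1.59 on the log2 scale, adjusted P = 1.5e-07). Of the secreted enzymes tested, Pla2g2e was lower by -0.75 on the log2 scale (adjusted P = 8.0e-04) and Pla2g5 higher by 0.78 (adjusted P = 1.1e-04), while Pla2g2d (0.28), Pla2g3 (-0.23) and Pla2g12a (-0.10) were not called. Pla2g6, a calcium-independent enzyme, was higher by 0.29 (adjusted P = 2.3e-03). Of 12 genes that supply or store arachidonic acid, 11 were tested and 1 was called, the desaturase Fads1 (0.16, adjusted P = 0.048), a call lost in 13 of 15 other settings, leaving out any 1 culture included.

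Terminal synthases decide which prostaglandin a cell makes. Ptges encodes microsomal prostaglandin E synthase-1, which makes PGE2 and is commonly induced together with COX-2. It measured 197, 198 and 202 CPM in normal glucose and 197, 198 and 200 CPM in high glucose. The groups overlapped, and the difference was -0.005 on the log2 scale (95% interval -0.11 to 0.098; adjusted P = 0.95). Ptgis encodes prostacyclin synthase, a typical enzyme of vessel walls. It measured 105, 95.5 and 108 CPM in normal glucose and 92.9, 95.7 and 96.1 CPM in high glucose. Normal glucose replicate 2 lay within the range of the high-glucose cultures, and the log2 fold change was -0.11 (95% interval -0.24 to 0.014; adjusted P = 0.16). Without that replicate it was -0.18 (adjusted P = 0.027). Per length of exon, the Ptges to Ptgis ratio was 1.22, 1.35 and 1.23 in normal glucose, against 1.38, 1.35 and 1.36 in high glucose. These ratios were narrowly apart although neither gene was called. On the other strand, 1110018N20Rik overlaps 156 bases of Ptgis exons (6.08%), with at most 13 counts.

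Ptgds encodes the lipocalin-type prostaglandin D synthase. The normal-glucose cultures held 3, 0 and 3 counts of it and the high-glucose cultures 11, 12 and 6, too few to pass the filter. Summed over the cultures of a group, 29 counts against 6 gave a rate ratio of 4.86, with an exact 95% interval of 1.98 to 14.3 that covers counting error only. The interval takes each count as a separate read, and is too narrow if counts include both reads of a pair.

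Of 11 other terminal synthases and related enzymes, 9 were tested, 3 were lower and 2 higher. Akr1c18, known for 20-alpha-hydroxysteroid dehydrogenase and prostaglandin F synthase activity, fell from 89, 108 and 86 counts to 34, 27 and 23 counts (-1.74 on the log2 scale, adjusted P = 8.9e-05). The aldo-keto reductases Akr1b3 and Akr1b8 were lower by -0.28 (adjusted P = 3.4e-03) and -0.34 (adjusted P = 2.3e-03). Gstm2 was higher by 0.25 (adjusted P = 5.7e-03), a call lost with library size scaling alone (0.13, adjusted P = 0.066). Ptges2, a membrane-associated PGE synthase, was higher by 0.17 (adjusted P = 0.036), again a call lost in 13 of 15 settings and without any 1 culture. Ptges3 measured -0.16 (adjusted P = 0.24), and Cbr1, Cbr3 and Fam213b lay between -0.015 and 0.032 and were not called. Hpgds had at most 2 counts in any sample and Tbxas1, the thromboxane synthase, at most 11, so neither was tested.

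**Figure D2:**
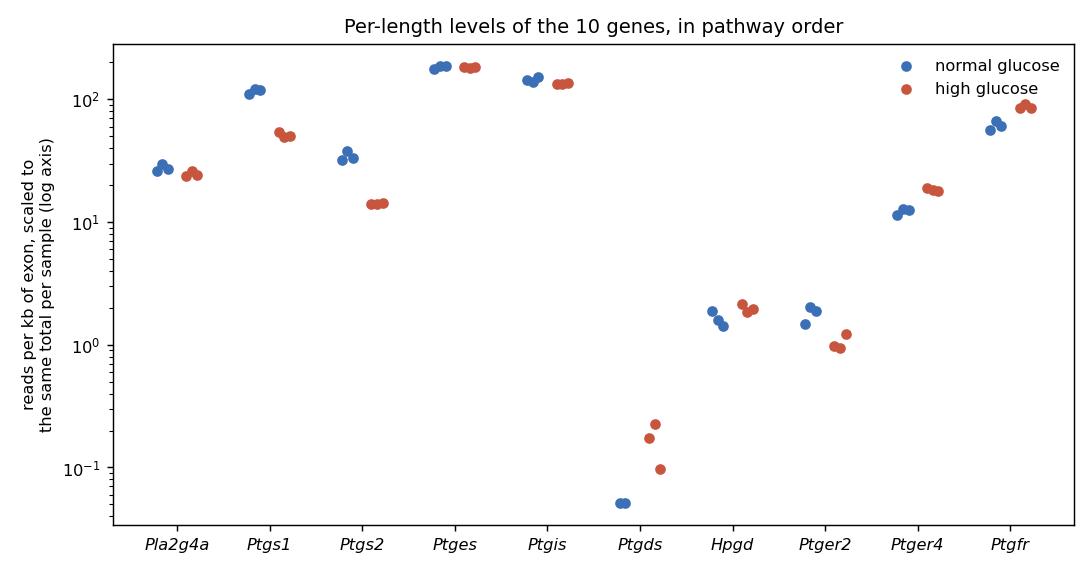
Level of each of the 10 genes per kilobase of exon, scaled to the same total in each sample (vertical log axis), in the 3 cultures in normal glucose (blue) and the 3 in high glucose (red). Ptges and Ptgis led in both groups, Ptgs1 fell from rank 3 to rank 4 behind Ptgfr, and Ptgds lay at 0.224 or less (its value of 0 in normal glucose replicate 2 cannot be drawn).

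Levels of different genes were compared per length of exon. In normal glucose the order was Ptges (184 ± 6.05), Ptgis (145 ± 6.41), Ptgs1 (118 ± 5.95), Ptgfr (60.9 ± 5.17), Ptgs2 (34.4 ± 3.18), Pla2g4a (27.6 ± 2.03) and Ptger4 (12.3 ± 0.717; mean ± SD, n = 3). Ptger2 (1.79 ± 0.291) and Hpgd (1.63 ± 0.227) overlapped, and Ptgds was last. Every other pair of neighbours was separated in all 3 cultures. Ptges lay above 95.1% of the tested genes and Ptger2 above 29% of them.

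The order changed in high glucose. Ptgfr, at 87.4 ± 3.11, stood above Ptgs1, at 51.3 ± 2.69, and both Pla2g4a (24.8 ± 1.41) and Ptger4 (18.4 ± 0.608) stood above Ptgs2 (14.1 ± 0.110). Hpgd (1.98 ± 0.155) stood above Ptger2 (1.04 ± 0.155). With the length of the longest transcript in place of all exons, Pla2g4a (39.2) already stood above Ptgs2 (27.2) in normal glucose. That length moved 14 of the 20 member levels by their SD or more.

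The receptors moved in both directions. PGE2 has 4 receptors, and EP2 (Ptger2) and EP4 (Ptger4) both raise cyclic AMP. Ptger2 (ENSMUSG00000037759; chromosome 14, 44988195 to 45003820) measured 2.16, 2.83 and 2.69 CPM in normal glucose and 1.38, 1.36 and 1.75 CPM in high glucose. All values in high glucose were lower, by a log2 fold change of -0.78 (SE 0.144; adjusted P = 2.3e-03), on 158 to 401 counts per sample. Ptger4 (ENSMUSG00000039942; chromosome 15, 5206661 to 5244187) measured 21.6, 22.8 and 23.1 CPM in normal glucose and 34.6, 34 and 32.9 CPM in high glucose. The groups were apart in the opposite direction, with a log2 fold change of 0.59 (SE 0.053; adjusted P = 1.9e-05), or 1.5-fold higher.

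The ratio of Ptger4 to Ptger2 per length was 7.81, 6.31 and 6.71 in normal glucose, against 19.7, 19.5 and 14.7 in high glucose. The means were 6.94 ± 0.778 and 18.0 ± 2.84 (SD, n = 3 each), with no overlap. Both genes were already apart in opposite directions, so this separation follows from their own values. High glucose replicate 3, which had the highest Ptger2 level of its group, had the lowest ratio.

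Ptgfr encodes the FP receptor for PGF2alpha, which signals through calcium. The gene (ENSMUSG00000028036) lies on chromosome 3 at 151796502 to 151837630. It measured 108, 120 and 113 CPM in normal glucose and 158, 172 and 160 CPM in high glucose. Every high-glucose culture was above every normal-glucose culture, with a log2 fold change of 0.52 (SE 0.060; adjusted P = 9.1e-05), or 1.44-fold. On the opposite strand, exons of Gm43618 overlap 329 bases of Ptgfr exons (4.85%). Gm43618 rose from a mean of 3.23 CPM (379 to 474 counts) to 6.31 CPM (765 to 863 counts), a log2 fold change of 0.96 (adjusted P = 1.9e-05). Whether reads were counted by strand is not given, so those of such a pair cannot be told apart. The 2 genes overlapping Ptger4 on the other strand were Ttc33, over 82 bases, and the pseudogene Gm15937, over 1015 bases (15.3% of Ptger4 exons). Ttc33 measured -0.067 on the log2 scale (adjusted P = 0.61), and Gm15937 had at most 8 counts. Those overlapping Ptger2 exons, Gm17173 and Gm49364, had at most 16.

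Of the 7 other genes on the receptor list, all were tested, 1 was lower and 2 higher. Ptger1, which encodes EP1, was lower by -0.40 (adjusted P = 0.011). Tbxa2r, the thromboxane receptor, rose from 2474 to 2808 counts per culture to 2797 to 3612 (0.26 on the log2 scale, adjusted P = 8.4e-03), a call lost without high glucose replicate 1 (adjusted P = 0.064) and with library size scaling alone (adjusted P = 0.079). Ptgdr, which encodes the DP1 receptor for PGD2, rose by 1.197 (adjusted P = 0.026) on 7 to 20 counts per sample, and this call was lost whenever any 1 culture was left out. Ptger3 (EP3) measured 0.38 (adjusted P = 0.19) and Ptgdr2 0.56 (adjusted P = 0.17), and Ptgfrn, whose protein binds the FP receptor, 0.070 (adjusted P = 0.56). Ptgir, the prostacyclin receptor, had 5539 to 7310 counts per sample and a log2 fold change of -0.11 (adjusted P = 0.15), which was -0.15 (adjusted P = 0.028) without normal glucose replicate 1.

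**Figure D3:**
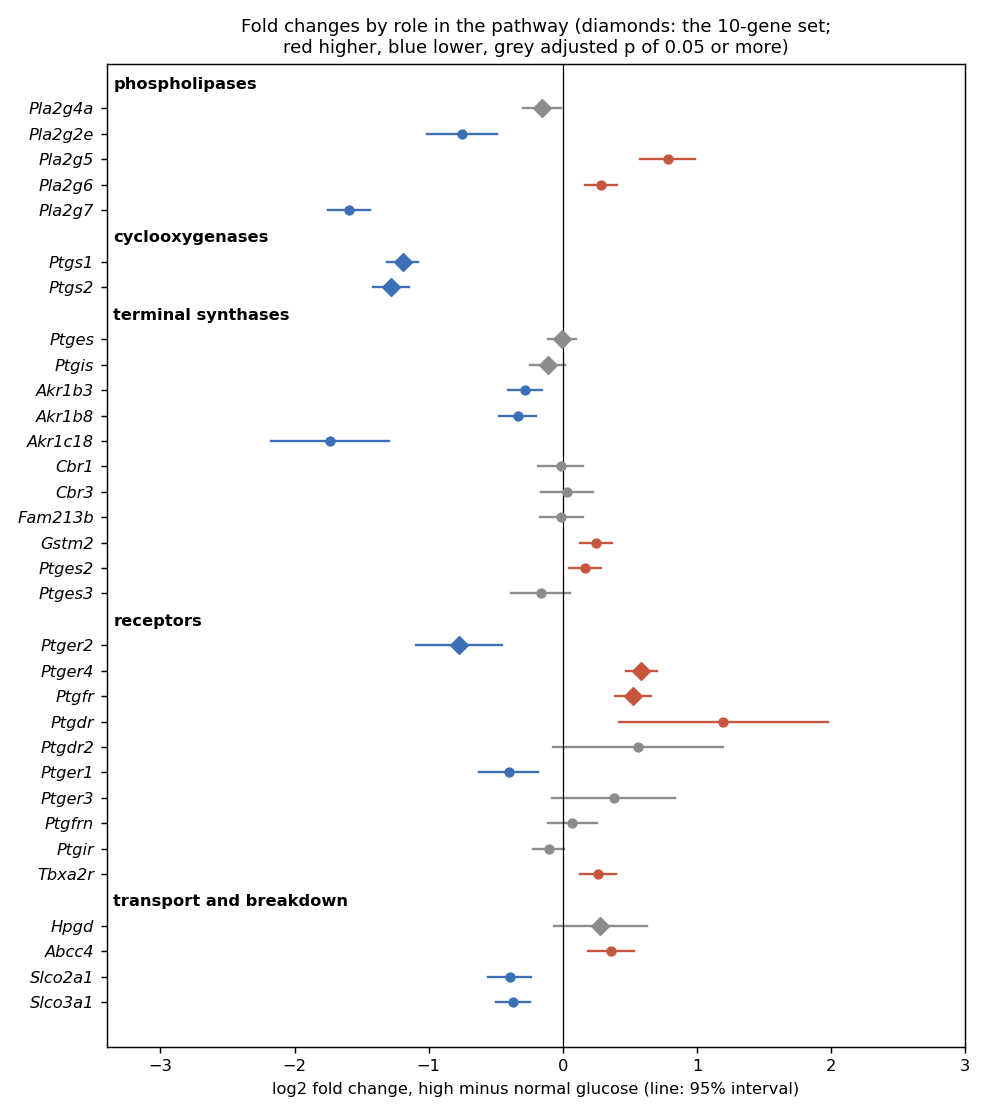
Log2 fold change between high and normal glucose (horizontal axis) with its 95% interval for tested genes grouped by role, diamonds marking members of the 10-gene set. Blue marks genes called lower, red genes called higher and grey genes not called. All tested terminal synthases and receptors are drawn, and for phospholipases and for transport and breakdown the called genes beside Pla2g4a and Hpgd. Both cyclooxygenases lay below -1, and the receptors lay on both sides of 0.

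Hpgd encodes 15-hydroxyprostaglandin dehydrogenase, which starts the breakdown of prostaglandins inside cells. It measured 0.895, 0.719 and 0.664 CPM in normal glucose and 0.987, 0.869 and 0.905 CPM in high glucose, on 85 to 140 counts per sample. The groups overlapped, and the log2 fold change of 0.28 (95% interval -0.068 to 0.63) was not called (adjusted P = 0.20). The ratio of Ptgs2 to Hpgd per length was 17.0, 23.8 and 23.4 in normal glucose, against 6.55, 7.61 and 7.33 in high glucose. These ratios did not overlap, with means of 21.4 ± 3.78 and 7.16 ± 0.547 (SD, n = 3 each). Ptgs2 alone was already apart between the groups, so this separation is not a separate result.

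**Figure D4:**
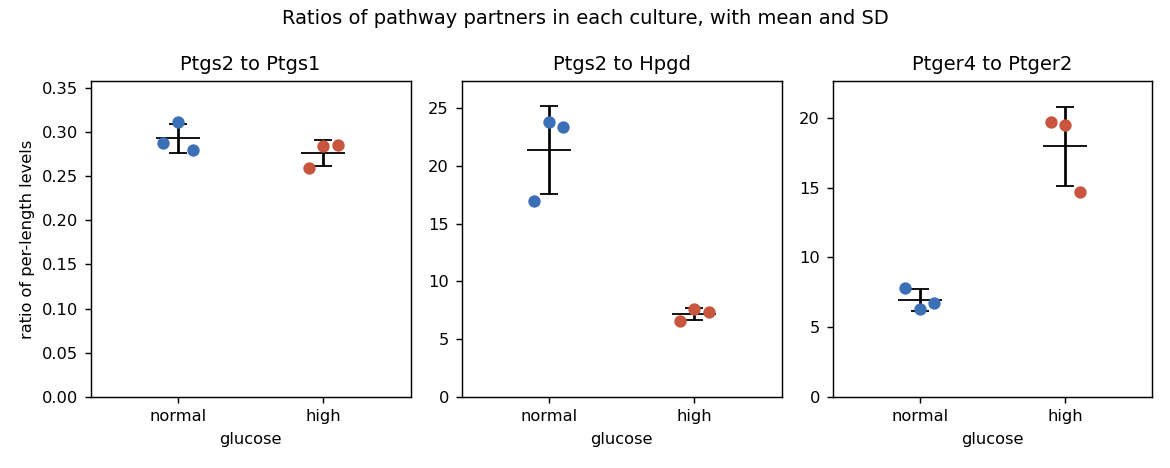
Ratios of per-length levels (vertical axes, each starting at 0) of 3 pairs of genes in the 3 cultures of each group, with mean and SD. The Ptgs2 to Ptgs1 ratio overlapped between the groups, while the others drawn were apart, as were the levels of Ptgs2, Ptger4 and Ptger2 themselves. The Ptges to Ptgis ratio is not drawn.

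Slco2a1, the prostaglandin transporter that carries prostaglandins into cells, was lower by -0.40 on the log2 scale (adjusted P = 2.1e-03). Its relative Slco3a1 was lower by -0.37 (adjusted P = 6.7e-04), and Abcc4, an exporter of prostaglandins and cyclic nucleotides, was higher by 0.36 (adjusted P = 5.1e-03). The other 3 genes of this list, Ptgr1, Ptgr2 and Zadh2, lay between -0.13 and -0.036 and were not called. Over the whole wider pathway, 56 of 70 genes were tested, 13 were lower and 8 higher, with a median log2 fold change of -0.043. Across all tested genes, 14.5% were lower and 16.9% higher.

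As EP2 and EP4 act through cyclic AMP, 12 genes known to respond to it were also counted. Of the 11 tested, 6 were higher and 3 lower, with a median log2 fold change of 0.33. Across all tested genes, 16.9% were higher and 14.5% lower. This list was chosen with earlier results of these data known, and a link to the receptors was not tested. The largest changes were those of Has2 (0.98, adjusted P = 9.6e-07), a hyaluronan synthase, Pde4b (0.48, adjusted P = 2.0e-04), a phosphodiesterase that degrades cyclic AMP, and Sik1 (0.47, adjusted P = 5.9e-04), a kinase. Nr4a1, Nr4a3 and Dusp1 were the 3 lower genes, between -0.34 and -0.30. Cyclic AMP itself was not measured, and many other signals act on these genes.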

How the data were processed

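RNA of 6 cultures, 3 in normal and 3 in high glucose, was sequenced after poly(A) selection. Per the study's methods and the submitters' processing notes, the authors used Trimmomatic for trimming, HISAT2 for alignment to GRCm38 and StringTie for counts per gene; versions, annotation release and use of strand are not given in the sources used here. The deposited values are whole-number counts per gene without normalization. The methods name an Illumina HiSeq, the labels a DNBSeq platform. Even values were common among low counts (the table held 9280 values of 2, 10842 of 1, 4874 of 4 and 4716 of 3), so counts may include both reads of a pair. The interval of the Ptgds ratio takes each count as a separate read, so it would then be too narrow. It and the values for 3 counts cover counting error only, and intervals of log2 fold changes include the spread between cultures.

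Low genes were removed with filterByExpr of edgeR 4.0.16 in R 4.3.3 (at least 10 counts, and 15 in total). TMM normalization was followed by the quasi-likelihood test of high against normal glucose over 19015 genes, and Benjamini-Hochberg adjustment at 0.05. The biological coefficient of variation was 8.44%. SEs were taken from the test statistic. The fit was tested on counts simulated under its own model, with means and spread of these data, which cannot test that model. An exact permutation test cannot go below 0.1 with 3 against 3. Levels per length used GENCODE exons (GRCm38), and promoters came from RefSeq (GRCm38.p6). Identifiers without a symbol held 0.034% of the counts.

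The 10 genes and the other gene lists were chosen with earlier results of these data known. Every member is given with its values. Of the wider pathway lists, the called genes and all prostanoid receptors and terminal synthases are named, with the 3 largest changes among genes responsive to cyclic AMP and genes whose exons overlap a member. Alternatives were DESeq2 1.42.0, other normalizations, filters and thresholds, robust fitting, halved counts, the replicate block and each culture left out.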

Additional observations from a re-analysis of the deposited data

How the results depend on the processing

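Ptgs1, Ptgs2, Ptger2, Ptger4 and Ptgfr kept their direction and their call in all 15 other fits, with log2 fold changes between -1.31 and -1.19, -1.40 and -1.24, -0.92 and -0.71, 0.47 and 0.59, and 0.41 and 0.56. Ptges and Hpgd were called in none of theirs. Scaling by library size alone brought Ptgis to -0.228 and Pla2g4a to -0.269, both then called, and upper quartile normalization brought Pla2g4a to -0.196. Leaving out 1 culture at a time gave -0.175 to -0.088 for Ptgis and -0.223 to -0.127 for Pla2g4a. Members called lower numbered 5 with library size scaling, and members called higher 0 with a minimum of 1 on the log2 scale. Wider pathway genes called lower numbered 20 with library size scaling and 4 with that minimum, against 13. Those called higher numbered 8, but 4 with library size scaling, 5 with halved counts and 5 with the replicate block. They numbered 5 at an adjusted P under 0.01, 1 with the minimum and 4 to 6 with 1 culture left out. DESeq2 size factors, upper quartile normalization, no filter, a filter at a mean of 1 CPM and the DESeq2 test each gave 6. Robust fitting kept 8. Over all genes, called lower numbered 4884 with library size scaling, 1671 at 0.01 and 542 with the minimum, against 2757. Called higher numbered 1819, 1946 and 395, and 1988 to 3149 with 1 culture left out, against 3212. The uncalled Cbr3 turned to -0.011 with upper quartile normalization and -0.082 with library size scaling, and Ptgfrn to -0.045 with the latter. With 1 culture left out, values ran from -0.101 to 0.041 for Cbr1, -0.078 to 0.102 for Cbr3, -0.098 to 0.038 for Fam213b and -0.050 to 0.121 for Ptgfrn. Of 34 named genes outside the set, 22 changed neither call nor sign. What caused these changes was not tested. Both groups carry replicate numbers 1 to 3, but same-numbered cultures did not deviate together (correlations of -0.025, 0.0038 and 0.013). With the replicate block, Ptgs1 was at -1.19 and Ptgs2 at -1.28, and no call of a member changed. Depth limits Ptgds, Ptgdr and Hpgd, with at most 12, 20 and 140 counts in a culture.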

Other observations

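The lipoxygenase and epoxide branches use the same arachidonic acid to make leukotrienes and epoxides. Of 14 genes, 11 were tested, 5 were lower in high glucose and 6 were not called, with a median log2 fold change of -0.49. Across all tested genes, 14.5% were lower. Alox5, the 5-lipoxygenase that starts leukotriene synthesis, fell from 94, 118 and 83 counts to 39, 41 and 58 counts (-1.08 on the log2 scale, adjusted P = 2.7e-03). Ltc4s, the leukotriene C4 synthase, was lower by -0.50 (adjusted P = 0.015), a call lost without high glucose replicate 2 (adjusted P = 0.053). The leukotriene receptors Ltb4r1 and Cysltr1 were at -0.71 (adjusted P = 4.4e-03) and -2.58 (adjusted P = 6.3e-04), the latter on 24 to 35 counts against 2 to 6. Ephx1, an epoxide hydrolase, fell from 28503 to 31511 counts per culture to 14639 to 17889 (-0.83, adjusted P = 9.1e-07). Alox5ap, which presents arachidonic acid to the 5-lipoxygenase, measured 0.27 (adjusted P = 0.081). The receptor Cysltr2 was at 0.060 (adjusted P = 0.88) and Ephx2, another epoxide hydrolase, at 0.18 (adjusted P = 0.098), neither called. Alox12, Aloxe3 and Lta4h, at -0.49, -0.12 and -0.076, were not called either. Macrophage markers summed to 8.61 to 9.90 CPM in normal glucose and 5.94 to 6.79 CPM in high glucose. Csf1r gave the largest part, with means of 5.62 and 3.38 CPM. Of 6 tested, 3 were lower, while Lyz2, Fcgr1 and Aif1 were not called. C1qb was at 0 in every culture, Adgre1 and C1qa had at most 3 counts, and Ptprc was at 0 outside normal glucose replicate 1. Mast cell markers summed to 7.62 to 7.98 CPM and 6.54 to 7.15 CPM, nearly all of it from Gata2, which was not called (adjusted P = 0.13). Of the 3 mast cell markers tested, Ms4a2 was lower on 5 to 33 counts, Hdc was not called, and Mcpt4, Tpsb2 and Fcer1a were at 0. Their part in the leukotriene genes was not tested.

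Around Ptgs2, the neighbouring noncoding genes were lower as well. Ptgs2os lies head to head with Ptgs2, on the opposite strand and with 67 bases between them, and fell from 55, 47 and 36 counts to 31, 13 and 26 counts (-0.99 on the log2 scale, adjusted P = 0.029), a call lost in 4 of 14 other fits, among them those without normal glucose replicate 1 or high glucose replicate 2 (adjusted P = 0.079 each) and without high glucose replicate 3 (adjusted P = 0.062). Ptgs2os2, 50815 bases after Ptgs2, fell from 162, 183 and 173 counts to 68, 85 and 67 counts (-1.21, adjusted P = 4.7e-04). Pla2g4a, on the same chromosome 138740 bases from Ptgs2, was not called. Gm43621, which overlaps 148 bases of Ptgs1 exons on the opposite strand, was at -1.82 (adjusted P = 0.015) on 3 to 25 counts. As use of strand is not given, reads of overlapping genes cannot be told apart. Ptgdr lies 128819 bases from Ptger2 on chromosome 14, and the pair moved in opposite directions.

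Of the other lists of cell types, 10 of 15 endothelial markers were tested, 3 lower and 2 higher. Of the smooth muscle and pericyte markers, 9 were tested, 4 lower and 1 higher, and of the keratinocyte markers 6, with 2 lower and 1 higher. Of 7 adipocyte markers tested, 5 were higher, with summed levels of 293 to 346 CPM and 355 to 393 CPM. Their part in the prostaglandin genes was not tested.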
